A study of Mus musculus with 6 samples.

Results

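The transcripts of 36 aminoacyl-tRNA synthetase genes were followed in mouse samples labelled as megakaryocytes, 20 genes for the cytosolic enzymes and 16 for the mitochondrial ones. The members were found by their gene symbol in a table of 55573 genes. All 36 were present, and all 36 passed the filter on low counts that left 16493 genes for testing. RNA was sequenced from 3 samples of genotype Abcc4-/- and 3 of genotype WT. Abcc4 is an efflux pump of the cell membrane, and cyclic nucleotides and thiopurine drugs are among its known substrates. The labels give no treatment, age or strain, and they do not describe the deleted part of the allele or any promoter or Cre that made it. The design text counts 3 mice in each group. No label ties a sample to an animal, so each p-value reflects only how far these 6 samples differ among themselves, a spread that may be technical.

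Aminoacyl-tRNA synthetases join each amino acid to its own transfer RNA, the step that fixes the reading of the genetic code before the ribosome acts. The nucleus encodes separate enzymes for the cytosol and for the mitochondrion, where a small set of respiratory chain proteins is made. Mouse Gars and Kars serve both places from 1 gene each, and Eprs joins a glutamyl and a prolyl enzyme in 1 protein. Several cytosolic synthetases sit in a multisynthetase complex held by scaffold proteins. When amino acids run short, uncharged transfer RNA activates the kinase GCN2, and translation of the transcription factor ATF4 rises. ATF4 is known to raise many cytosolic synthetase genes through DNA elements shared by C/EBP and ATF proteins.

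Library totals lay between 67009925 and 99294493 counts in Abcc4-/- and between 50440239 and 55123512 in WT, so the Abcc4-/- libraries were 1.55 times as deep on average. Abcc4 itself averaged 61.0 ± 1.13 CPM in Abcc4-/- and 73.9 ± 1.96 CPM in WT (SD, n = 3 each; CPM is the count divided by a TMM-normalized library size). Its log2 fold change was -0.28 (SE 0.05; edgeR quasi-likelihood test, adjusted p = 0.0026). Counts cover the whole gene, so this value does not check the genotype labels. The 13 megakaryocyte markers examined were all detected, none at 0, but took only 0.0197% to 0.0237% of counts in Abcc4-/- and 0.0288% to 0.0350% in WT, with 9 of 13 lower in Abcc4-/-. The 12 neutrophil markers took 4.08% to 4.27% of counts in Abcc4-/- and 2.31% to 2.99% in WT, with 9 higher and 1 lower. Over all genes tested, 8.61% were higher and 8.68% lower at an edgeR adjusted p below 0.05. All 6 T and NK cell markers and 5 of 7 B cell markers were higher in Abcc4-/-. Of the other markers, 2 of 8 erythroid ones were higher, 2 of 9 macrophage ones were lower, and none of 6 cycling ones was called. The part of this difference in cell makeup in the results below was not tested. In such bulk samples, fewer cells of a type and less RNA per cell cannot be told apart.

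Promoter stretches are shown because the known ATF4 link of cytosolic synthetase genes runs through elements of this kind. The core letters searched were TGATGNAA, the 8-base core of the C/EBP-ATF response element, on both strands of 300-base windows from 250 bases before to 50 after each RefSeq start (GRCm38.p6). The core was present in 5 of the 13 cytosolic members with a promoter in the table (38.5%) and in 0 of the 14 mitochondrial members (0%), against 1219 of 27025 genes in all (4.51%). A match is a description of letters, not of a bound site. Of these 5, Gars, Iars, Tars and Yars are shown, the enzymes for glycine, isoleucine, threonine and tyrosine. Asns, which makes asparagine and is a known ATF4 target, is shown for comparison. Each stretch is written 5′ to 3′ on the strand of its gene, with the core, in either orientation, in capitals. The positions are chr6:55037956-55037993 for Gars, chr13:49682122-49682159 for Iars and chr4:129189891-129189928 for Yars, all on the plus strand. Tars lies at chr15:11399651-11399688 and Asns at chr6:7693210-7693247, both on the minus strand.
Gars: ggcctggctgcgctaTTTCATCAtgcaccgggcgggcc
Iars: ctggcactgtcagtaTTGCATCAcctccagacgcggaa
Tars: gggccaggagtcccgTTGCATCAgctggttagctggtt
Yars: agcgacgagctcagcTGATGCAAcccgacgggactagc
Asns: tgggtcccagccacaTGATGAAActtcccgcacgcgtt
The core read TTGCATCA in Iars and Tars and TTTCATCA in Gars, all reverse complements of the searched letters. Yars and Asns carried it in the forward orientation. The first base of the core stood 30, 15 and 23 bases before the start in Gars, Tars and Asns. In Iars and Yars the core lay after the start, with its first base at positions 8 and 4 of the transcript.

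Cytosolic synthetase transcripts were mostly more abundant than mitochondrial ones. On the length-scaled TPM measure, cytosolic members ranged from 18.8 to 171 with a median of 40.5 in Abcc4-/-, and from 18.0 to 195 with a median of 40.3 in WT. Mitochondrial members ranged from 2.63 to 371 with a median of 13.1 in Abcc4-/-, and from 2.32 to 304 with a median of 13.9 in WT. The top of the mitochondrial range was Lars2 alone, the leucine enzyme. Among the mitochondrial members that were not called, the highest mean was 22.5 TPM in Abcc4-/-, for Hars2, and 24.4 TPM in WT, for Cars2. Vars, the valine enzyme, was the highest cytosolic member, and Cars, the cysteine enzyme, the lowest. Mars2, the methionine enzyme of mitochondria, was the lowest of all by TPM. Its annotated transcript is 11294 bases long, and TPM divides by length.

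**Figure D1:**
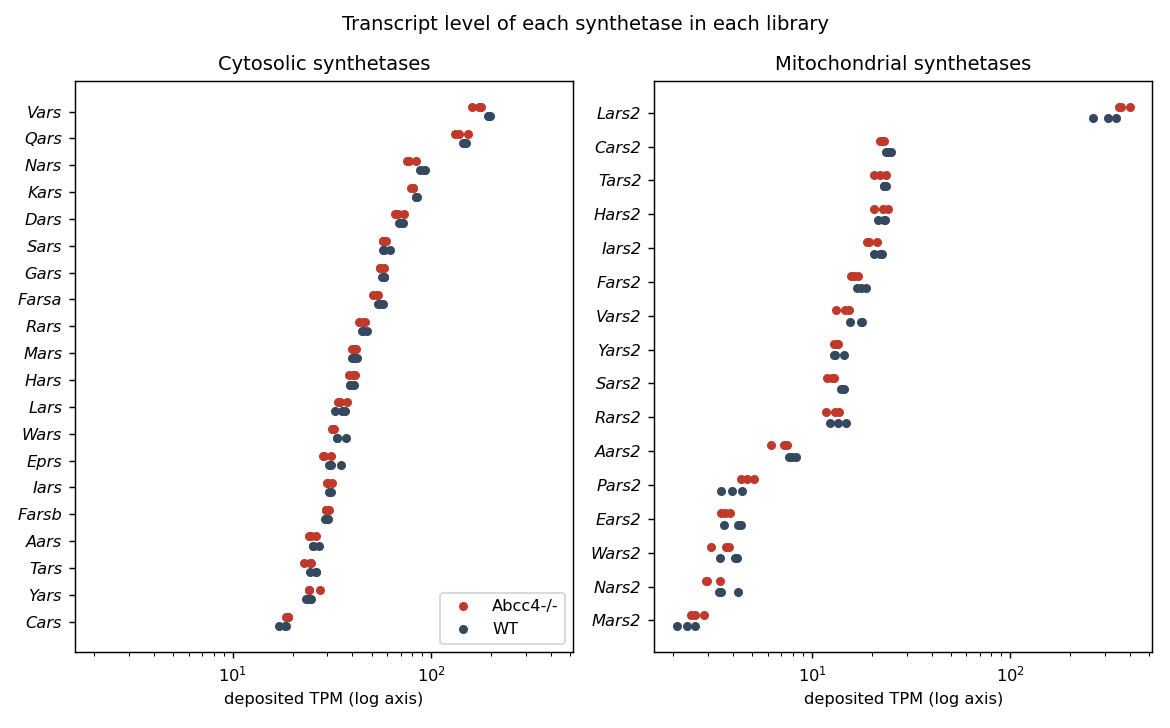
Deposited TPM of each synthetase gene on a log axis, with 1 point for each of the 3 Abcc4-/- (upper row of a gene) and 3 WT samples, cytosolic and mitochondrial members apart. Lars2 averages at 371 TPM in Abcc4-/- and 304 TPM in WT, far above the other 15 mitochondrial members.

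The comparison of Abcc4-/- with WT asks whether these transcripts differ between the genotypes. Most did not pass the test. Of the 36 members, 3 were higher in Abcc4-/- and 0 lower at an edgeR adjusted p below 0.05, and 33 were not called. The share called was 8.33%, against 17.3% of all 16493 genes tested (8.61% higher and 8.68% lower). The 3 called genes were all mitochondrial: Lars2, Pars2 and Mars2. The CPM groups did not overlap in 13 of 36 members, 10 with Abcc4-/- above and 3 below, against 36.8% of all genes (18.4% above and 18.3% below). The median log2 fold change was 0.02 over the members and 0.00 over all genes. In 33 of the 36 members the 95% interval lay within 1.25-fold in either direction, so larger differences than that fall outside the intervals for those genes.

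**Figure D2:**
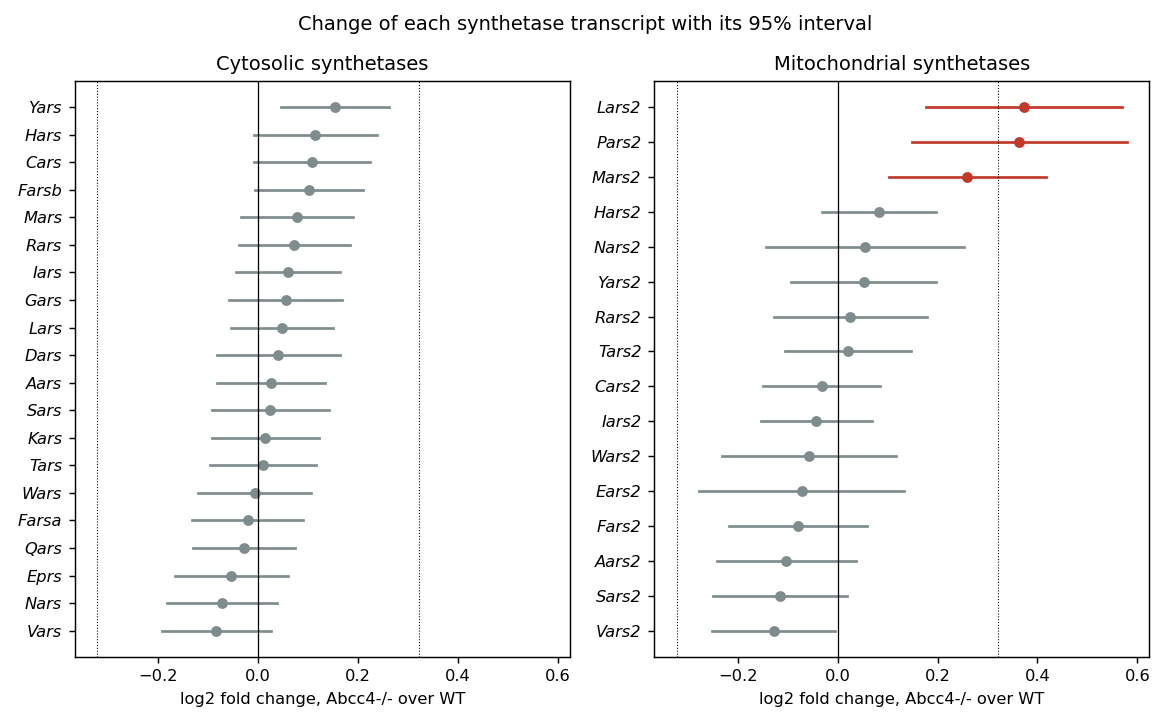
Log2 fold change of Abcc4-/- over WT for each of the 36 synthetase genes with its 95% interval from the edgeR fit, called members in red and dotted lines at 1.25-fold. The cytosolic members lie between -0.08 and 0.15, and Lars2, Pars2 and Mars2 stand to the right at 0.37, 0.36 and 0.26.

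None of the 20 cytosolic synthetases was called, in edgeR, DESeq2 or limma-voom, and 1, Yars, had an unadjusted edgeR p below 0.05. Of all genes tested, 17.3% were called by edgeR. Their log2 fold changes ran from -0.08 in Vars to 0.15 in Yars, with 14 above 0, 6 below and a median of 0.03. The intervals of all 20 lay within 1.25-fold, with fold bounds from 0.875 for Vars to 1.20 for Yars. Abcc4-/- was above WT in all samples for 6 members and below for 2, and 12 overlapped. Over all genes, 18.4% lay above and 18.3% below without overlap. The counts behind these values ran from 1225 to 28471 per gene and library.

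Yars, the tyrosine enzyme (ENSMUSG00000028811.11, chromosome 4, 129189760 to 129219607, plus strand of GRCm38), was nearest to the threshold. It had 45.8, 44.2 and 45.2 CPM in Abcc4-/-, against 39.7, 41.8 and 39.9 CPM in WT. Every Abcc4-/- sample was above every WT sample, by 1.11-fold on average (95% interval 1.03 to 1.20; log2 fold change 0.15, SE 0.05; edgeR, adjusted p = 0.0523, 0.0512 to 0.527 over the alternatives). It passed under none of the alternatives.

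The phenylalanine enzyme subunit gene Farsb had 40.6, 39.3 and 39.8 CPM in Abcc4-/-, against 37.6, 37.7 and 36.1 CPM in WT (log2 fold change 0.10; edgeR, adjusted p = 0.187). Hars, the histidine enzyme, had 58.2, 52.7 and 53.8 CPM in Abcc4-/-, against 52.6, 50.9 and 48.4 CPM in WT (0.11; edgeR, adjusted p = 0.194). The Abcc4-/- samples of both genes lay above the WT samples, with the nearest samples of Hars almost equal. Cars had 26.6, 25.6 and 25.4 CPM in Abcc4-/-, against 24.4, 24.1 and 23.6 CPM in WT (0.11; edgeR, adjusted p = 0.197). Mars, the cytosolic methionine enzyme, had 63.0, 61.9 and 62.6 CPM in Abcc4-/-, against 59.8, 61.9 and 56.2 CPM in WT (0.08; edgeR, adjusted p = 0.343). In Mars the lowest Abcc4-/- sample and the highest WT sample were equal to 3 digits.

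Vars and Nars pointed the other way. Vars had 279, 288 and 277 CPM in Abcc4-/-, against 301, 305 and 289 CPM in WT (log2 fold change -0.08; edgeR, adjusted p = 0.284). Nars, the asparagine enzyme, had 133, 123 and 133 CPM in Abcc4-/-, against 137, 139 and 133 CPM in WT (-0.07; edgeR, adjusted p = 0.361). Nars is given because its call, like that of Vars, changed with the scale. On log2(TPM + 1) the log2 fold changes were -0.19 for Vars and -0.20 for Nars (limma, adjusted p = 0.0362 and 0.0421). On that scale the median of all genes was itself -0.06, and with each library centred neither was called.

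Neither gene that serves both compartments was called. Gars had 95.6, 89.1 and 87.9 CPM in Abcc4-/-, against 88.7, 89.0 and 84.7 CPM in WT (log2 fold change 0.06; edgeR, adjusted p = 0.515). Kars, the lysine enzyme, had 118, 111 and 111 CPM in Abcc4-/-, against 113, 114 and 109 CPM in WT (0.01; edgeR, adjusted p = 0.882). Groups overlapped in both genes, and leaving them out left the cytosolic median at 0.03 over 18 members.

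Subgroups of the cytosolic enzymes stayed close together. The 8 synthetases of the multisynthetase complex (Eprs, Iars, Lars, Qars, Mars, Kars, Rars and Dars) had a median log2 fold change of 0.04 and the 12 outside it 0.02, with 0 called in each. The complex scaffold genes Aimp1, Aimp2 and Eef1e1 had a median of 0.07, with 0 of 3 called and all 3 overlapping. The structural families had medians of 0.06 for the 9 class I enzymes and 0.02 for the 10 class II enzymes, with 0 called in each. Eprs holds a part of each class and was left out of that division.

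Among the mitochondrial synthetases, 3 of 16 were higher in Abcc4-/- (18.8%, against 8.61% of all genes) and 0 lower, and 13 were not called. As many log2 fold changes lay above 0 as below, 8 each, with a median of -0.01, or -0.03 over the 15 without Lars2. Abcc4-/- was above WT in all samples for 4 members and below for 1, against 18.4% and 18.3% of all genes. The 13 that were not called had intervals within 1.25-fold, with fold bounds from 0.825 for Ears2 to 1.19 for Nars2. The class I enzymes of mitochondria had 2 of 9 higher (22.2%) with a median of -0.03. The class II enzymes had 1 of 7 higher (14.3%) with a median of 0.02. Of all genes, 8.61% were higher, and counts this small do not set the 2 classes apart.

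Lars2 (ENSMUSG00000035202.8, chromosome 9, 123366927 to 123462666, plus strand, 21 exons) had 1131, 974 and 968 CPM in Abcc4-/-, against 820, 696 and 858 CPM in WT. The lowest Abcc4-/- sample stood above the highest WT sample, and the spread within each group was wide. The fold was 1.29 (95% interval 1.13 to 1.48; log2 fold change 0.37, SE 0.09; edgeR, adjusted p = 0.0163). By TPM the means were 371 ± 25.0 in Abcc4-/- and 304 ± 38.7 in WT (SD, n = 3 each). The call was lost without Abcc4-/- replicate 1, which had the highest value (edgeR, adjusted p = 0.0657). It was also lost on log2(TPM + 1) and log2(TPM + 0.1) (limma, adjusted p = 0.0826 and 0.0775). The adjusted p ranged from 0.00016 to 0.0826 over all alternatives.

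The 3′ UTR of Lars2 shares letters with other gene models. In its coding transcript of 3894 bases, coding ends at 2905. Bases 3233 to 3329 are 94.8% identical over 97 bases to AA474408, and bases 3278 to 3349 are 98.6% identical over 72 bases to Gm15564. No other gene model shared a stretch of at least 50 bases and 90% identity with Lars2. No such stretch was found for Mars2 or Pars2. AA474408 averaged 0.319 CPM in Abcc4-/- and 0.360 CPM in WT, and Gm15564 fell below the filter. Which part of Lars2 the counts came from cannot be seen from gene totals.

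RNA of the mitochondrial genome and ribosomal RNA are set beside Lars2, with genes picked after their values were seen. Of the 13 mitochondrially encoded mRNAs, 4 were higher in Abcc4-/- (30.8%, against 8.61% of all genes) and 0 lower, with a median log2 fold change of 0.21. They were mt-Nd1 (0.28; edgeR, adjusted p = 0.0176), mt-Co1 (0.27; edgeR, adjusted p = 0.0384), mt-Cytb (0.28; edgeR, adjusted p = 0.0271) and mt-Nd6 (0.66; edgeR, adjusted p = 0.018). The first 3 lost their call on each TPM scale, and all 4 without Abcc4-/- replicate 1. So did mt-Co1 without WT replicate 1 or 2 or Abcc4-/- replicate 2 or 3. The call of mt-Cytb was also lost without WT replicate 1 or Abcc4-/- replicate 2 or 3, and that of mt-Nd1 without WT replicate 1. That of mt-Nd6 was also lost without WT replicate 3 or Abcc4-/- replicate 2. Of the 13, 11 had log2 fold changes above 0 and 2 below, mt-Co2 and mt-Atp6. In WT mt-Co2 had 17.6, 81.0 and 44.1 CPM and mt-Atp6 44.4, 46.0 and 14.9, an uneven spread. The mitochondrial ribosomal RNA mt-Rnr1 averaged 290 ± 16.4 CPM in Abcc4-/- and 233 ± 39.0 CPM in WT (SD, n = 3 each; edgeR, adjusted p = 0.121). The other, mt-Rnr2, averaged 662 CPM in Abcc4-/- and 609 CPM in WT, with overlapping groups (log2 fold change 0.12; edgeR, adjusted p = 0.622). The ribosomal RNA-related gene models Gm42418 and Gm26917 had log2 fold changes of -0.17 and -0.11 (edgeR, adjusted p = 0.669 and 0.287). The part of these RNAs in the Lars2 result was not tested.

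Pars2, the proline enzyme of mitochondria (ENSMUSG00000043572.7, chromosome 4, 106651069 to 106655282, plus strand, 2 exons), was a low-abundance member. It had 7.11, 7.37 and 7.68 CPM in Abcc4-/-, against 6.28, 5.89 and 5.05 CPM in WT. The groups did not overlap, and WT replicate 3 was the lowest sample. The fold was 1.29 (95% interval 1.11 to 1.49; log2 fold change 0.36, SE 0.10; edgeR, adjusted p = 0.0259). The call was lost without WT replicate 3 (edgeR, adjusted p = 0.0751) and without Abcc4-/- replicate 1, 2 or 3 (0.0556, 0.0786 and 0.0801), after thinning all libraries to the depth of the smallest (0.0569), and on each TPM scale (limma, adjusted p = 0.107 to 0.199).

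Mars2 (ENSMUSG00000046994.9, chromosome 1, 55237177 to 55248470, plus strand, 1 exon) had 21.7, 22.2 and 23.9 CPM in Abcc4-/-, against 17.1, 19.3 and 20.2 CPM in WT. The groups did not overlap. The fold was 1.20 (95% interval 1.07 to 1.33; log2 fold change 0.26, SE 0.07; edgeR, adjusted p = 0.0281). The call was lost without WT replicate 1 (edgeR, adjusted p = 0.101) or 2 (0.0508), without Abcc4-/- replicate 1, 2 or 3 (0.0522, 0.0706 and 0.0995), and on each TPM scale (limma, adjusted p = 0.104 to 0.390).

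**Figure D3:**
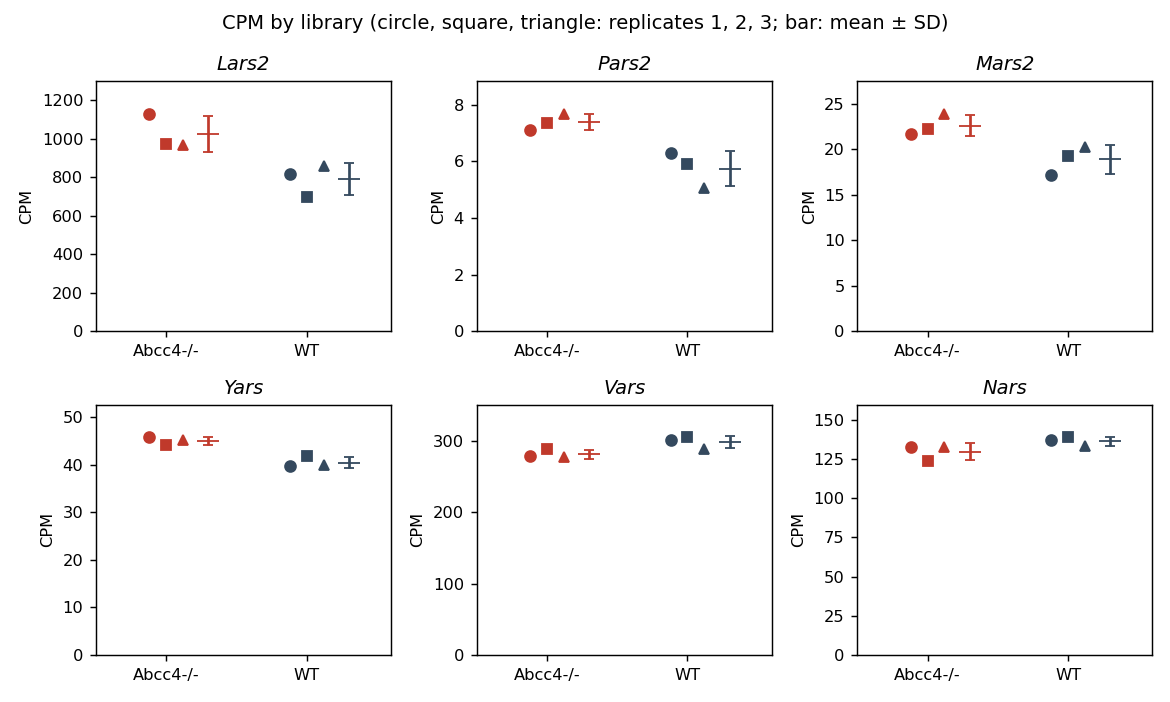
CPM in each sample of Lars2, Pars2, Mars2, Yars, Vars and Nars, with Abcc4-/- left of WT, the symbol giving the replicate and the bar the mean ± SD. The Abcc4-/- samples lie above the WT samples for the first 4 genes and below them for Vars and Nars, where the nearest samples of Nars are both at 133 CPM.

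Other mitochondrial members pointed downward without passing. Vars2, the valine enzyme of mitochondria, had 23.7, 24.6 and 23.9 CPM in Abcc4-/-, against 25.9, 27.7 and 25.3 CPM in WT (log2 fold change -0.13; edgeR, adjusted p = 0.148). Sars2, the serine enzyme, had 15.3, 16.3 and 15.6 CPM in Abcc4-/-, against 17.3, 17.6 and 16.2 CPM in WT (-0.11; edgeR, adjusted p = 0.231). Groups did not overlap in Vars2 and overlapped in Sars2. Aars2, the alanine enzyme, had 14.1, 15.7 and 14.8 CPM in Abcc4-/-, against 15.9, 16.5 and 15.6 CPM in WT (-0.10; edgeR, adjusted p = 0.303).

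Cytosolic synthetases were also set against mitochondrial ones within each sample. The mean log2 CPM of the cytosolic members was 6.26, 6.20 and 6.22 in Abcc4-/-, against 6.21, 6.21 and 6.17 in WT. That of the mitochondrial members was 4.44, 4.42 and 4.44 in Abcc4-/-, against 4.41, 4.42 and 4.36 in WT. The cytosolic minus mitochondrial difference was 1.82, 1.78 and 1.78 in Abcc4-/-, against 1.80, 1.79 and 1.81 in WT. The groups overlapped in that difference. Its mean was 1.79 ± 0.02 in Abcc4-/- and 1.80 ± 0.01 in WT (SD, n = 3 each), a change of -0.01, smaller than the within-group SD of 0.018. Without Lars2 the change was 0.02. No p is given for these scores over members.

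**Figure D4:**
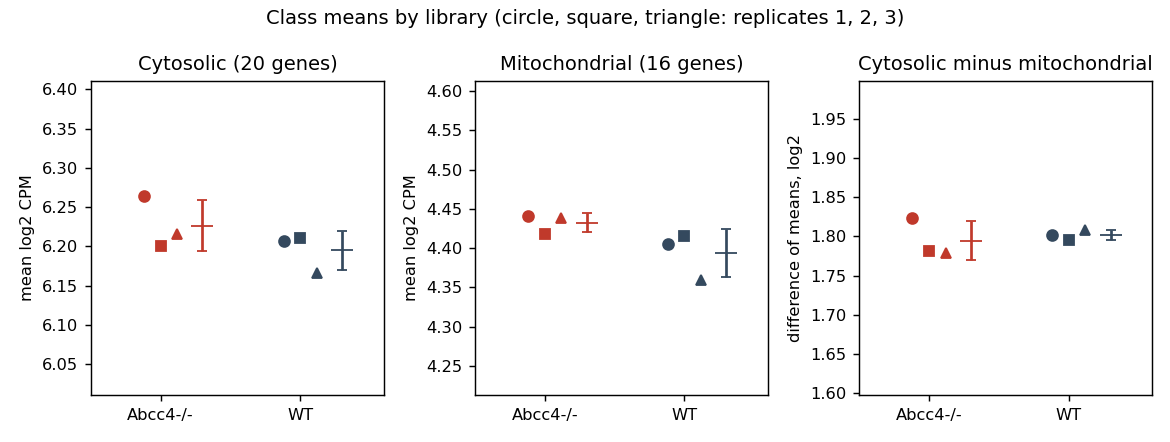
Mean log2 CPM of the cytosolic members, mean log2 CPM of the mitochondrial members, and their difference in each sample, Abcc4-/- left of WT, with bars for mean ± SD. The difference lies between 1.78 and 1.82 in Abcc4-/- and between 1.79 and 1.81 in WT, and the groups overlap.

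The sum over the mitochondrial class depended on Lars2. The 16 mitochondrial members together had 552 ± 21.9 TPM in Abcc4-/- and 498 ± 41.8 TPM in WT, and without Lars2 181 ± 6.38 TPM in Abcc4-/- and 194 ± 3.08 TPM in WT (SD, n = 3 each). The 20 cytosolic members had 1083 ± 28.5 TPM in Abcc4-/- and 1143 ± 12.8 TPM in WT. In CPM the cytosolic sum was 1709 ± 33.8 in Abcc4-/- and 1704 ± 29.2 in WT. The mitochondrial sum was 1330.5 ± 90.8 in Abcc4-/- and 1097.9 ± 78.6 in WT, and without Lars2 306 ± 4.33 in Abcc4-/- and 307 ± 6.78 in WT. Without Lars2, the class sums were lower in Abcc4-/- on the TPM scale and within 1 SD of WT on the CPM scale. The median log2 fold change of all genes was itself -0.06 on log2(TPM + 1). The part of that general shift in the lower TPM sums was not tested.

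Matched by amino acid, each mitochondrial gene formed a pair with its cytosolic partner, 16 pairs in all. Ears2 and Pars2 were both paired with Eprs, and Fars2 with Farsa. The cytosolic partner was the more abundant by TPM in 14 of 16 pairs, in Abcc4-/- and in WT alike. The exceptions were the leucine pair, with a cytosolic to mitochondrial TPM ratio of 0.0956 in Abcc4-/- and 0.115 in WT, and the cysteine pair, with 0.839 in Abcc4-/- and 0.738 in WT. The ratio of the pair in CPM did not overlap between groups in 7 of the 16 pairs. Single genes did not overlap in 36.8% of cases, and the share for other gene pairs was not computed, so this count is a description. Abcc4-/- stood above WT in 4 of these (cysteine, isoleucine, serine and tyrosine) and below in 3 (leucine, asparagine and Pars2 with Eprs). The other 9 pairs overlapped.

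The steps next to tRNA charging held 1 called gene, Mtif3. Of 10 proofreading and amidation genes, which clear mischarged tRNA or make special aminoacyl-tRNAs, 0 were called by edgeR, DESeq2 or limma-voom, with 1, Qrsl1, at an unadjusted p below 0.05 and a median log2 fold change of -0.01. Of 5 cytosolic elongation factors, 0 were called by edgeR, with a median of 0.00. Eef2, which moves the ribosome along the mRNA, averaged 2642 ± 92.7 CPM in Abcc4-/- and 2941 ± 76.2 CPM in WT (SD, n = 3 each; log2 fold change -0.15; edgeR, adjusted p = 0.104). Eef2 was the exception there with an unadjusted p below 0.05, and it was called by DESeq2 (adjusted p = 0.0175).

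Of 9 mitochondrial initiation, elongation and release factors, 1 was higher (11.1%, against 8.61% of all genes) and 0 lower, with a median of 0.04. That share is near the background. Mtif3, a mitochondrial initiation factor, had 13.4, 14.3 and 13.0 CPM in Abcc4-/-, against 11.8, 11.5 and 9.72 CPM in WT (1.23-fold; log2 fold change 0.30, SE 0.08; edgeR, adjusted p = 0.0287). The groups did not overlap. The call was lost without WT replicate 3 (edgeR, adjusted p = 0.0677), without Abcc4-/- replicate 1 (0.0762) or 2 (0.120), and on each TPM scale (limma, adjusted p = 0.173 to 0.360).

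The amino acid sensing and ATF4 list held genes that changed in both directions. Of 25 measured, 2 were higher and 5 lower in Abcc4-/- (28.0% called, against 17.3% of all genes), with a median log2 fold change of 0.02. Of all genes, 8.61% were higher and 8.68% lower, so the count of higher genes was near the background. Atf4 itself had 234, 204 and 228 CPM in Abcc4-/-, against 356, 367 and 380 CPM in WT. The groups lay far apart, 1.66-fold lower in Abcc4-/- (log2 fold change -0.73, SE 0.06; edgeR, adjusted p = 2.02e-05). Transcript levels do not report ATF4 protein, which is known to be set mainly by translation.

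The other genes that fell were Cebpb, a partner of ATF4, Ppp1r15a, a phosphatase subunit that reverses the stress signal, Ddit4, an inhibitor of mTORC1, and Impact, an inhibitor of GCN2. Ppp1r15a had 76.7, 52.6 and 68.4 CPM in Abcc4-/-, against 286, 274 and 309 CPM in WT, 4.41-fold lower (log2 fold change -2.14; edgeR, adjusted p = 0.000276). Ddit4 had 18.2, 16.9 and 18.7 CPM in Abcc4-/-, against 36.0, 42.8 and 53.2 CPM in WT (-1.29; edgeR, adjusted p = 0.00173). No sample overlapped between groups in either gene. Cebpb averaged 75.9 ± 0.956 CPM in Abcc4-/- and 134 ± 9.86 CPM in WT (SD, n = 3 each; -0.82; edgeR, adjusted p = 7.26e-06). Impact averaged 16.1 ± 1.49 CPM in Abcc4-/- and 26.2 ± 4.13 CPM in WT (SD, n = 3 each; -0.70; edgeR, adjusted p = 0.00485).

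The genes that rose were Asns and Cebpg, Cebpg being another C/EBP partner of ATF4. Asns had 18.4, 16.5 and 17.4 CPM in Abcc4-/-, against 12.7, 13.4 and 10.2 CPM in WT, 1.44-fold higher (log2 fold change 0.53, SE 0.09; edgeR, adjusted p = 0.00393). Cebpg had 81.0, 80.7 and 78.7 CPM in Abcc4-/-, against 67.0, 66.8 and 68.6 CPM in WT (0.25; edgeR, adjusted p = 0.00401), and lost its call on each TPM scale (limma, adjusted p = 0.0702 to 0.415). Atf4, Cebpb, Ppp1r15a, Ddit4, Impact and Asns were called under every alternative run.

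**Figure D5:**
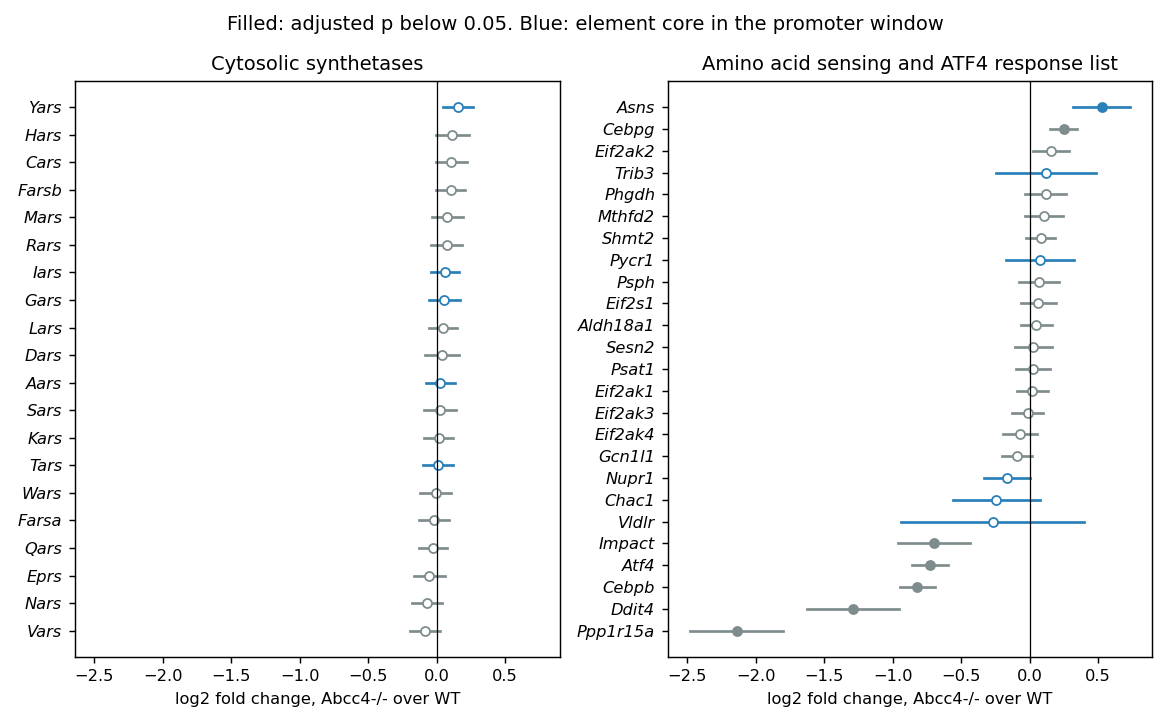
Log2 fold change of Abcc4-/- over WT with its 95% interval for the 20 cytosolic synthetases (left panel) and the 25 amino acid sensing and ATF4 genes (right panel). Points are filled where called and blue where the promoter window holds the core. Grey also covers genes with no promoter available to search: Cars, Hars, Lars, Nars, Rars, Vars, Wars and Impact. Ppp1r15a, Ddit4, Cebpb, Atf4 and Impact lie below 0 and Asns and Cebpg above, while the cytosolic synthetases lie between -0.08 and 0.15.

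None of the cytosolic members that carry the core in their promoter window, before or after the start, was called. Of the 4 whose sequences are given above, Yars had a log2 fold change of 0.15, Iars 0.06, Gars 0.06 and Tars 0.01 (edgeR, adjusted p = 0.0523, 0.431, 0.515 and 0.930). In the ATF4 list, 6 of the 24 genes with a promoter in the table held the core (25.0%): Asns, Trib3, Chac1, Pycr1, Vldlr and Nupr1. Of these, Asns was called by edgeR. Trib3, a pseudokinase that inhibits ATF4, had a log2 fold change of 0.12 and Chac1, which degrades glutathione, -0.24, and neither was called (edgeR, adjusted p = 0.678 and 0.283). Both had few counts, with Trib3 at 1.39 CPM in Abcc4-/- and 1.28 CPM in WT. Chac1 had 2.81 CPM in Abcc4-/- and 3.33 CPM in WT. Pycr1, Vldlr and Nupr1 had log2 fold changes of 0.07, -0.27 and -0.17 (edgeR, adjusted p = 0.716, 0.580 and 0.162). Nupr1 was called lower on log2(TPM + 1) and log2(TPM + 0.1) (limma, adjusted p = 0.0294 and 0.0266), but not on the centred form.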

How the data were processed

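Paired-end RNA-seq libraries came from a strand-specific mRNA kit, per the labels' protocols. The submitters' processing notes name STAR 2.7, RSEM 1.3.1 and mm10, with the annotation version not given in the sources used here. Tables deposited by the authors hold expected counts per gene, not normalized, and TPM, scaled by length and library total within each sample, both marked as stranded. The 92 non-gene entries, all at 0 counts, were left out. The lowest chi-square per degree of freedom between any pair of the 6 libraries was 11.6, so no library was taken as a duplicate.

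For this work, rounded expected counts went into edgeR 4.0.16 under R 4.3.3, with TMM factors, the default filter and a robust quasi-likelihood test, with Benjamini-Hochberg adjustment over all 16493 genes, called below 0.05. CPM used TMM library sizes, and class scores are means of log2 CPM with a prior count of 2. Alternatives were other normalizations and filters, DESeq2 1.42.0, limma-voom (limma 3.58.1), the replicate number as a block, limma on log2(TPM + 1), its centred form and log2(TPM + 0.1), thinning, and each library left out. TPM fold changes are on these log2 scales and understate changes of low genes. Positions came from GENCODE M21, promoters from RefSeq (GRCm38.p6), and similar stretches from blastn 2.17.0.

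The members and lists were chosen with earlier results of these data known. Named are the called members, members by p until 6 stood in each class, the highest and lowest TPM of each class, Gars, Kars and called pathway genes; Nars, the core-bearing genes, Qrsl1, Eef2 and the mitochondrial and ribosomal RNAs were added after their values were seen. Overlaps with coding genes were on the opposite strand for 10 members and on the same strand for 1, Aars. Some genes and 1 promoter stretch are not reported here.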

Additional observations from a re-analysis of the deposited data

How the results depend on the processing

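Other normalizations (RLE, upper quartile, library totals), the absent or stricter filter, DESeq2 and limma-voom called Lars2, Mars2 and Pars2 and no cytosolic member, with 2617 to 3284 genes called in all; thinning called Lars2 and Mars2. On log2(TPM + 1), 2 cytosolic (Vars and Nars, lower) and 0 mitochondrial members were called, with class medians of -0.037 and -0.11. On log2(TPM + 0.1) the counts were again 2 and 0, the medians -0.038 and -0.12, and the Abcc4-/- minus WT change in the cytosolic minus mitochondrial score 0.014. On these scales the median of all genes was -0.06 and -0.08, and 28.7% and 28.1% of calls were higher, against 49.8% in the count test. Centred log2(TPM + 1) called 1 member, the mitochondrial Lars2, and 1849 genes, 57.0% of them higher. The cause of these shifts was not tested. Leaving out 1 library at a time, with fewer samples by construction, gave 0 to 2 called members, all mitochondrial (0 to 2), and 1760 to 2415 called genes; 0 members were called without Abcc4-/- replicate 1 (1821 genes), and 1, Lars2, without Abcc4-/- replicate 2 (1760 genes) or 3. With the replicate number as a block, the same 3 members and 3157 genes were called. Deviations of same-numbered libraries from their group means correlated at -0.05, -0.03 and -0.01, and those of differently numbered libraries at -0.06 to 0.08. With 3 libraries per group, such values cannot exclude that the numbers pair the samples. Mitochondrial members had as few as 275 counts in a library and cytosolic ones at least 1225.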

Other observations

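Pars2 and Mars2 have the fewest exons of the 36 members, 2 and 1, with at least 5 in any other. This grouping by exon number was made after the values were seen. Over the 13220 coding genes tested with an annotated exon number, 9.59% were higher and 9.06% lower in Abcc4-/- (edgeR, adjusted p below 0.05). Of the 355 genes with 1 exon, 9.58% were higher and 25.1% lower, with a median log2 fold change of -0.10. Of the 545 genes with 2 exons, 16% were higher and 14.5% lower, with a median of 0.03. Of the 2752 genes with 3 to 5 exons, 13.7% were higher and 9.01% lower, with a median of 0.05. Of the 4045 genes with 6 to 10 exons, 9.81% were higher and 7.05% lower, with a median of 0.02. Of the 5523 genes with 11 or more exons, 6.75% were higher and 9.0% lower, with a median of -0.03.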
